A study of Homo sapiens with 8 samples.

Results

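PLAGL1 is a zinc finger transcription factor encoded by an imprinted gene, and it is regarded as the hub of a network of imprinted genes that control fetal growth. The network described here held 10 genes named in advance, PLAGL1, IGF2, H19, KCNQ1OT1, DLK1, MEG3, PEG3, PEG10, MEST and GRB10, and its members were the rows of the expression table carrying one of these symbols. Of the 10, 9 were found among the 25603 genes of the table, and H19 was not analysed here. The set was selected on measured values that included the rise of PLAGL1 in the comparison below, so PLAGL1 is described without a test and the question is whether the other members changed with it. RNA was sequenced from HepG2, an established human hepatocarcinoma line, in 4 libraries of cells given vehicle (0.2% DMSO) and 4 libraries of cells given EZHi, the combination of UNC1999 and valemetostat tosylate (spelled Valmetostat Tosylate in the labels) at 1 µM each. Both groups were exposed for 4 days and shared a medium with serum, insulin and dexamethasone. The labels give 0.2% DMSO for the vehicle, the methods text of the study gives a lower percentage, and the DMSO content of EZHi is not stated. Both compounds inhibit EZH1 and EZH2, the enzymes with which the polycomb repressive complex PRC2 methylates H3K27. HepG2 is a single tumour-derived line, so all libraries carry one genome, and the assay counts RNA from both parental alleles together.

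At an imprinted gene, one parental copy is transcribed and the other is silenced according to the methylation that its control region received in the egg or sperm. PRC2 and its H3K27me3 mark occupy the silent copy of several such genes, and some imprinted clusters are silenced by a long noncoding RNA acting in cis. In fetal liver many imprinted genes of this network are strongly expressed and then decline after birth, and in hepatocarcinoma lines some of them stay on.

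Sequences around the starts of the members were read from RefSeq (GRCh38.p14), which gave 18 windows of 300 bases for 4 members, PLAGL1, GRB10, MEST and MEG3. Each window ran from 250 bases before to 50 bases after a start. The windows below are the 2 PLAGL1 starts richest in CpG, since transcripts of this gene begin at both and the table sums them, and the MEST start with the most copies of TGCCGC, the hexamer that ZFP57 binds when it is methylated in order to keep imprints. Capitals mark TGCCGC on either strand (GCGGCA on the printed strand where the match is on the other one), and all 3 sequences are given 5′ to 3′ on the strand of the gene.
PLAGL1, intragenic start, chr6:144008210-144008509, minus strand: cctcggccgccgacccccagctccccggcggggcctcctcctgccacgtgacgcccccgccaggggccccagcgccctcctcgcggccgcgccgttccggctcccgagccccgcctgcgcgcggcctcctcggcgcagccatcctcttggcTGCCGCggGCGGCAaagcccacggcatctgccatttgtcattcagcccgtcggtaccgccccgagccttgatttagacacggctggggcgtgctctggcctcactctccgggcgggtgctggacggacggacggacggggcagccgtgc
PLAGL1, upstream start, chr6:144064550-144064849, minus strand: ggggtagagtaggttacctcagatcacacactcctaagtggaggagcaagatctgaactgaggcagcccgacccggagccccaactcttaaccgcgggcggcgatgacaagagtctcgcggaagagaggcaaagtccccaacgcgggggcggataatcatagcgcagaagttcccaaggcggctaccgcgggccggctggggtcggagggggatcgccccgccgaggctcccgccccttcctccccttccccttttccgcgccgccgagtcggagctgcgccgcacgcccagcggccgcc
MEST, chr7:130491835-130492134, plus strand: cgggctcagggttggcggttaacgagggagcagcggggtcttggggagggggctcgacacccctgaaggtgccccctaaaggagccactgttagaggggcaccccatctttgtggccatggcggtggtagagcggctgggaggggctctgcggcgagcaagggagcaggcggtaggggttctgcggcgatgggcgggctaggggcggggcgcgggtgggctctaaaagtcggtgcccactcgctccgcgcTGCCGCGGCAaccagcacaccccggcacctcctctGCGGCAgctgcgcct
The intragenic PLAGL1 window held 39 CpG dinucleotides, more than 91.3% of the 34943 RefSeq windows of this length, whose median was 14. It carried 2 copies of the hexamer and 1 copy of GGGGCCCC, a palindromic sequence of the type that PLAGL1 itself binds. The annotated start of the noncoding RNA HYMAI also lies in this window. The upstream PLAGL1 window held 31 CpG dinucleotides and neither motif. The MEST window held 3 copies of the hexamer, with the 2 copies of the first capital run overlapping on opposite strands, and no GGGGCCCC. Among all windows 16.7% held TGCCGC, 2.75% held it at least 2 times and 1.95% held GGGGCCCC, each counted on both strands. These matches describe the letters only, and no binding or methylation was measured here.

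Expression is given on the deposited log2 scale, which is corrected for transcript length, and levels are also given as an estimated FPKM derived from it. A gene was tested when its mean estimated FPKM was at least 0.1, and it is said to be called when the limma adjusted p was under 0.05. The methods of the study describe the replicates as biologically independent and the labels say nothing of pairs, but libraries with the same number deviated together in both groups, so that results are also given with the replicate number as a block (paired analysis). Of the 20153 genes tested, 8.85% were called higher and 4.27% lower in EZHi. With the replicate block these shares were 14.9% and 15.1%. HepG2 identity was checked with 8 hepatocyte-derived markers, all of which were detected, with a summed estimated FPKM between 2.23e4 and 4.33e4 in vehicle and between 2.45e4 and 3.93e4 in EZHi. Of 10 markers of fibroblasts, endothelium and immune cells, 7 were in the table, with a sum between 4.17 and 7.12 in vehicle and between 6.79 and 10.4 in EZHi. The filter left 5 of them, and 3 were called higher, namely CDH5, VWF and PDGFRA with log2 fold changes of 2.28, 1.45 and 0.92. COL3A1 and CD3E stayed under the filter, COL1A1 and PECAM1 were not called, and the part of these markers in the results below was not tested.

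PLAGL1 was much higher in every EZHi library, whereas the other members divided into those with a smaller positive difference in every pair of libraries and those with differences on both sides of zero. The share of all genes with a positive difference in every pair was not computed, so this division has no reference. Of the 9 members found, 8 passed the filter and MEG3 did not. Among the 7 other members that could be tested, 1 (MEST) was called higher and 0 lower, against 8.85% and 4.27% of all genes. With the replicate block 5 of the 7 were called higher (IGF2, KCNQ1OT1, DLK1, MEST and GRB10), against 14.9% of all genes, and 0 were called lower. At an unadjusted p under 0.05, 3 members were higher and 0 lower without the block, and the share of all genes at that threshold was not computed. The median log2 fold change of the 7 was 0.35, beside -0.0077 over all genes tested.

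**Figure D1:**
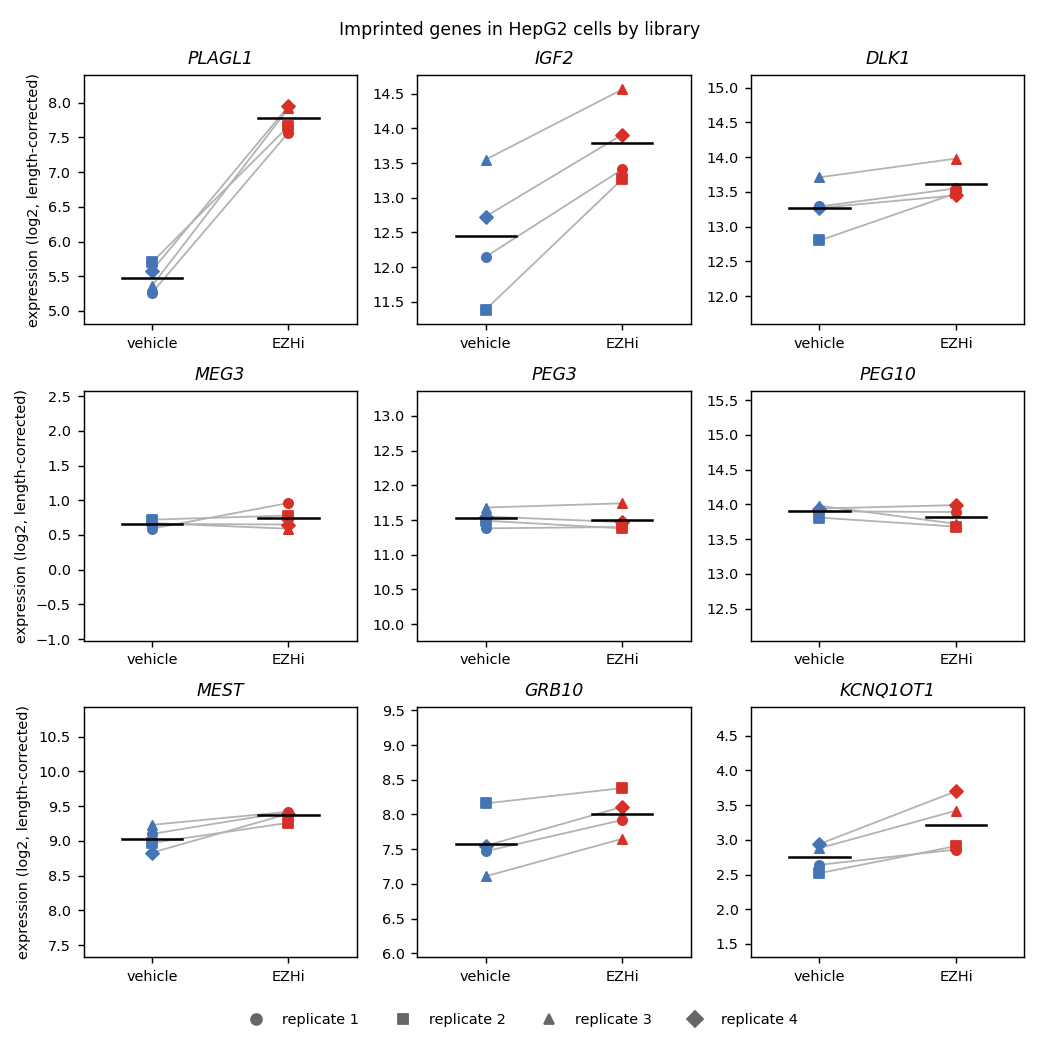
Length-corrected log2 expression of the 9 members found, one panel per gene, in the 4 vehicle libraries (blue) and the 4 EZHi libraries (red). Symbols give the replicate number, grey lines join libraries of equal number, black bars are group means, and every panel spans the same number of log2 units, so that slopes may be compared. PLAGL1 rises from a mean of 5.48 to 7.78, and the 4 IGF2 lines all point upwards from widely spread vehicle values.

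PLAGL1 (ENSG00000118495, GRCh38 chromosome 6, 143940300 to 144064599, minus strand, protein-coding) encodes a DNA-binding protein that restrains the cell cycle. Its log2 values were 5.26, 5.70, 5.36 and 5.58 in vehicle replicates 1 to 4 and 7.57, 7.66, 7.92 and 7.95 in EZHi replicates 1 to 4. All EZHi libraries lay above all vehicle libraries, with a gap wider than the range within either group. The estimated FPKM averaged 1.75 ± 0.245 under vehicle and 8.62 ± 1.11 under EZHi (SD, n = 4 each), which on the log2 scale is a difference of 2.30, or 4.93-fold. The differences within pairs were 2.31, 1.96, 2.56 and 2.37, and the change ranked 67th among the 20153 genes ordered from the highest. HYMAI (chromosome 6, 144004916 to 144008262), a paternally expressed noncoding RNA transcribed from the intragenic start, was below the filter in both groups. Its log2 values were -0.04, -0.20, -0.28 and -0.04 in vehicle and 0.49, 0.14, 0.16 and 0.49 in EZHi. These do not overlap but correspond to an estimated FPKM of 0.0356 ± 0.00293 (SD, n = 4) and 0.0491 ± 0.00657 (SD, n = 4), so HYMAI stayed far below PLAGL1. PLAGL1 and HYMAI share exonic sequence on the same strand, amounting to 8.63% of the HYMAI exonic bases.

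IGF2 (ENSG00000167244, chromosome 11, 2129112 to 2158391, minus strand), the fetal insulin-like growth factor, showed the largest change after PLAGL1 together with the widest spread. Its estimated FPKM was 177, 105, 467 and 265 in vehicle and 426, 385, 941 and 600 in EZHi, in replicate order. The groups overlapped, since vehicle replicate 3 exceeded EZHi replicates 1 and 2. Replicate 3 was the highest and replicate 2 the lowest library in both groups, and the vehicle libraries alone spanned 4.47-fold. Within pairs IGF2 was higher in EZHi in 4 of 4, by 1.26, 1.88, 1.01 and 1.18 on the log2 scale. The log2 fold change was 1.33 (95% interval 0.37 to 2.30), and the limma adjusted p was 0.0741. The replicate block narrowed the interval to 1.06 to 1.60, and limma then gave an adjusted p of 7.25e-05. Leaving out vehicle replicate 3 alone, without the block, gave 1.70 and a limma adjusted p of 0.0163. It was the only one of the 8 such fits past the threshold, and the others reached down to 0.98 (without vehicle replicate 2), with a limma adjusted p of up to 0.17. In GENCODE 44, 37.9% of the IGF2 exonic bases are shared with the overlapping gene ENSG00000284779 and 20.4% with INS-IGF2, neither of which was analysed here. In the counting mode given in the methods, reads over shared exons count for neither gene where both were annotated. The level of IGF2 therefore depends on the annotation used for counting, which is not given.

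KCNQ1OT1 (ENSG00000269821, chromosome 11, 2597308 to 2700003, minus strand), the long noncoding RNA transcribed from the paternal copy that silences its neighbours in cis, was the other member of this chromosome arm. Its estimated FPKM was 0.243, 0.225, 0.288 and 0.30 in vehicle and 0.283, 0.295, 0.419 and 0.506 in EZHi. EZHi replicates 1 and 2 lay within the vehicle range, while replicates 3 and 4 lay above it. The log2 fold change was 0.48 (95% interval 0.05 to 0.90, limma adjusted p 0.142, or 0.0103 with the replicate block), and all 4 pairs were higher in EZHi. The value was 0.19 on the scale of log2(estimated FPKM + 0.5) and 0.29 with quantile normalization. KCNQ1OT1 is antisense to KCNQ1, a potassium channel gene, and lies mostly in its introns. Since reads were counted without regard to strand, unspliced KCNQ1 transcripts and KCNQ1OT1 cannot be told apart. KCNQ1 itself had a log2 fold change of 0.29 (95% interval -0.09 to 0.66, limma adjusted p 0.322).

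DLK1 and MEG3 lie in one imprinted domain of chromosome 14 and are transcribed from opposite parental copies, DLK1 from the paternal one and MEG3 from the maternal one. DLK1 (ENSG00000185559, 100725705 to 100738224, plus strand), a membrane protein with EGF-like repeats that marks fetal liver progenitors, had an estimated FPKM of 393, 279, 522 and 387 in vehicle and 469, 447, 629 and 438 in EZHi. Vehicle replicate 3 was above EZHi replicates 1, 2 and 4, so the groups overlapped. The log2 fold change was 0.35 (95% interval -0.06 to 0.76, limma adjusted p 0.266). Leaving out vehicle replicate 2 lowered it to 0.19, and leaving out EZHi replicate 3 to 0.23. All 4 pairs were higher in EZHi, by 0.26, 0.68, 0.27 and 0.18, and the limma adjusted p with the replicate block was 0.0103. The long noncoding RNA MEG3 (ENSG00000214548, 100779410 to 100861031, plus strand) was under the filter, with an estimated FPKM between 0.0587 and 0.0644 in vehicle and between 0.0587 and 0.0758 in EZHi. It was therefore not tested, and its differences within pairs were 0.37, 0.06, -0.08 and -0.01. RTL1, a retrotransposon-derived paternally expressed gene of the same domain, is described with the other imprinted genes below.

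MEST (ENSG00000106484, chromosome 7, 130486171 to 130506465, plus strand), a paternally expressed gene for a protein of the hydrolase fold, was the only tested member called without the block. Its estimated FPKM was 21.4, 19.5, 23.5 and 17.8 in vehicle and 26.8, 24, 26.8 and 26.1 in EZHi. The lowest EZHi library, replicate 2, stood just above the highest vehicle library, replicate 3. The log2 fold change was 0.34 (SE 0.091, 95% interval 0.14 to 0.54, limma adjusted p 0.036, or 0.00419 with the replicate block). Without the block the call was kept when vehicle replicate 3 or EZHi replicate 2 was left out, and it was lost when vehicle replicate 1, 2 or 4 was left out (limma adjusted p 0.0623, 0.0859 and 0.0903) or when EZHi replicate 1, 3 or 4 was left out (0.0909, 0.0814 and 0.0937). With the block the call held in each of the 4 fits that left out a pair. MESTIT1, whose transcript overlaps 10.2% of the MEST exonic bases, was at an estimated FPKM of 0.00911 in vehicle and 0.00985 in EZHi.

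GRB10 (ENSG00000106070, chromosome 7, 50590063 to 50793462, minus strand) encodes an adaptor that dampens signalling by the insulin and IGF receptors, and its imprinting depends on the isoform and tissue. Its estimated FPKM was 6.90, 11.1, 5.40 and 7.31 in vehicle and 9.46, 13, 7.82 and 10.8 in EZHi. Vehicle replicate 2 exceeded EZHi replicates 1, 3 and 4, so the groups overlapped. The extreme libraries were swapped relative to IGF2, with replicate 2 highest and replicate 3 lowest in both groups, while replicate 4 stood above replicate 1 for both genes. Each pair was higher in EZHi, by 0.46, 0.22, 0.53 and 0.56 on the log2 scale. The log2 fold change was 0.44 (95% interval -0.05 to 0.93, limma adjusted p 0.236), it was 0.29 without vehicle replicate 3, and the limma adjusted p with the replicate block was 0.0022.

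PEG3 and PEG10, both strongly expressed, showed no change beyond the spread of the replicates. PEG3 (ENSG00000198300, chromosome 19, 56810077 to 56840728, minus strand), a zinc finger protein, had an estimated FPKM of 104, 112, 129 and 117 in vehicle and 105, 104, 133 and 111 in EZHi. Its log2 fold change was -0.03 (95% interval -0.24 to 0.19, limma adjusted p 0.892), and the sign turned to 0.07 with centred libraries and 0.09 with quantile normalization. PEG10 (ENSG00000242265, chromosome 7, 94656325 to 94669695, plus strand), a protein derived from a retrotransposon, had an estimated FPKM of 597, 560, 632 and 615 in vehicle and 595, 513, 526 and 636 in EZHi. Its log2 fold change was -0.09 (95% interval -0.28 to 0.10, limma adjusted p 0.577), and it turned to 0.00785 with centred libraries. Under the replicate block the limma adjusted p was 0.692 for PEG3 and 0.322 for PEG10. In PEG3, 39.1% of the exonic bases are overlapped by an antisense gene (ENSG00000286125) and 12.9% are shared with ZIM2.

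**Figure D2:**
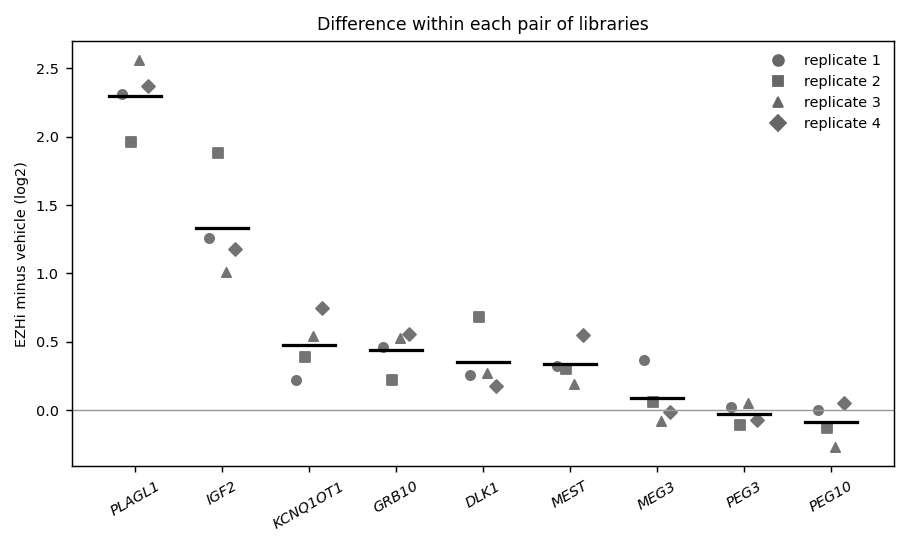
Difference in log2 expression between the EZHi and the vehicle library of equal replicate number, for the 9 members found, ordered by their mean (black bars). All 4 points lie above zero for PLAGL1, IGF2, KCNQ1OT1, GRB10, DLK1 and MEST, and points lie on both sides of zero for MEG3, PEG3 and PEG10.

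The levels of the members, which are per length, spanned several orders of magnitude. The lowest, such as that of MEG3, may lie near a floor of the deposited values and are compared with caution. CD3E, for example, stayed between 0.051 and 0.0512 in all vehicle libraries. In vehicle the order of estimated FPKM was PEG10 (601), DLK1 (395), IGF2 (254), PEG3 (116), MEST (20.6), GRB10 (7.69), PLAGL1 (1.75), KCNQ1OT1 (0.264) and MEG3 (0.0618). The libraries of DLK1 and IGF2, and those of IGF2 and PEG3, overlapped in this order, and the other neighbours were separated in all 4 libraries. In EZHi the mean of IGF2 (588) stood beside that of PEG10 (567), and PLAGL1 (8.62) had reached the range of GRB10 (10.3). Replicate 3 was the highest vehicle library for 5 of the 9 members, namely IGF2, DLK1, PEG3, PEG10 and MEST.

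The genes whose profile over the 8 libraries lay nearest to that of PLAGL1 were not imprinted genes of these lists. They were TUBB4A, SSTR1, COL26A1, SRL and PYGO1, with root mean square distances between 0.111 and 0.174 on the log2 scale after each gene was set to its own vehicle mean. TUBB4A, a neuronal beta-tubulin, had an estimated FPKM of 0.631, 0.849, 0.642 and 0.803 in vehicle and 3.18, 3.44, 3.35 and 3.54 in EZHi. PYGO1 averaged 0.0697 in vehicle, under the filter, and 0.351 in EZHi, so it passed only through EZHi. The nearest other member was IGF2 at 0.969, and PEG10 was the farthest at 1.70. This distance contains the difference in log2 fold change from PLAGL1, so it is no separate evidence of a shared profile. TUBB4A and the genes named with it were picked for their likeness, and no test of it is given.

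A list of 55 other imprinted genes was examined next, of which 41 were in the table and 32 were tested. Called higher were 8 of them and called lower 1, against 8.85% and 4.27% of all genes tested. The median log2 fold change of the 32 was 0.0289, beside -0.0077 for all genes, and 17 were positive. Most of the 32 were therefore not called. Of the 11 under an estimated FPKM of 1, 4 were called higher, against 13.8% of all genes at that level, and of the 21 above it, 4 were called higher, against 6.15%. One of the calls under 1 was KCNK9, which passed the filter only through its EZHi libraries, and without it 7 of 31 genes were called higher, 3 of them among 10 under 1. Divided by the copy that is usually transcribed, 4 of 14 paternally expressed genes were higher and 1 lower, 3 of 15 maternally expressed genes were higher and 0 lower, and 1 of 3 genes with imprinting limited to an isoform was higher.

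IGF2-AS, the antisense transcript of IGF2, showed the largest rise of this list, from 0.214, 0.220, 0.241 and 0.213 to 0.712, 0.683, 0.915 and 0.692 in estimated FPKM. The groups were well apart, with a log2 fold change of 1.75 (SE 0.113, limma adjusted p 1.15e-05). Of its exonic bases 11.6% lie opposite IGF2 exons, and reads there count for neither gene in the counting mode given in the methods. IGF2-AS lies within the span of IGF2, so over its other exons unspliced IGF2 reads cannot be told apart from its own without strand. At these levels IGF2-AS remained far below IGF2 in every library, and its vehicle libraries differed little, whereas those of IGF2 were spread widely. RTL1, the neighbour of DLK1 and MEG3, went from 0.122, 0.112, 0.189 and 0.138 to 0.339, 0.263, 0.278 and 0.268 in estimated FPKM, a log2 fold change of 1.06 (limma adjusted p 0.00172). The groups did not overlap, and 24.3% of its exonic bases are antisense to MIR493HG.

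ZDBF2, a paternally expressed zinc finger gene of chromosome 2, rose by 0.87 on the log2 scale, from an estimated FPKM of 1.38 ± 0.239 to 2.51 ± 0.367 (SD, n = 4, limma adjusted p 0.00411). WT1, the Wilms tumour transcription factor, rose by 0.83 (limma adjusted p 0.00541), from 1.67 ± 0.275 to 2.96 ± 0.428 (SD, n = 4), with pair differences between 0.78 and 0.90. Both kept their calls in all 8 fits that left out 1 library. KCNK9, a potassium channel gene, was called higher by 0.64 (limma adjusted p 0.00032), but its estimated FPKM was between 0.0742 and 0.0876 in vehicle, under the filter, and between 0.118 and 0.130 in EZHi. It thus entered the test only through the group in which it is high. Without any filter its limma adjusted p was 0.000808.

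The remaining calls were smaller. OSBPL5, an oxysterol-binding protein gene near KCNQ1OT1, rose by 0.60 (limma adjusted p 0.0177), and this call was lost without vehicle replicate 4 (0.0567) and without EZHi replicate 4 (0.0582). DDC, the aromatic amino acid decarboxylase gene beside GRB10, rose by 0.43 (limma adjusted p 0.0179), from an estimated FPKM of 21.4 ± 2.96 to 28.6 ± 1.43 (SD, n = 4), and was not called without vehicle replicate 4 (0.0562) or EZHi replicate 1 (0.0539). NAP1L5 rose by 0.41 (limma adjusted p 0.0247) and lost its call without vehicle replicate 1 (0.0615) or 4 (0.076) and without EZHi replicate 1 (0.0717), 2 (0.0645) or 4 (0.0614). INPP5F, a phosphoinositide phosphatase gene, fell by 0.30 (limma adjusted p 0.0388), and it lost the call without vehicle replicate 2 (0.094), 3 (0.0688) or 4 (0.0989) and without EZHi replicate 1 (0.0949), 3 (0.0894) or 4 (0.0913). With quantile normalization OSBPL5 and NAP1L5 were not called (limma adjusted p 0.0621 and 0.219), and INPP5F was not called there or with centred libraries (0.0706 and 0.126).

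Under the replicate block the same 8 genes were called higher, and 4 were called lower, against 14.9% and 15.1% of all genes. The 3 added were PEG13, ZNF331 and RB1, with log2 fold changes of -0.48, -0.34 and -0.23 and limma adjusted p of 0.0202, 0.00475 and 0.0195. The most abundant genes of the list that were not called were GNAS, the stimulatory G protein alpha subunit, BLCAP, and IGF2R, the receptor that clears IGF2. The 95% interval of their log2 fold change was -0.12 to 0.16 for GNAS, -0.35 to 0.16 for BLCAP and -0.17 to 0.16 for IGF2R.

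**Figure D3:**
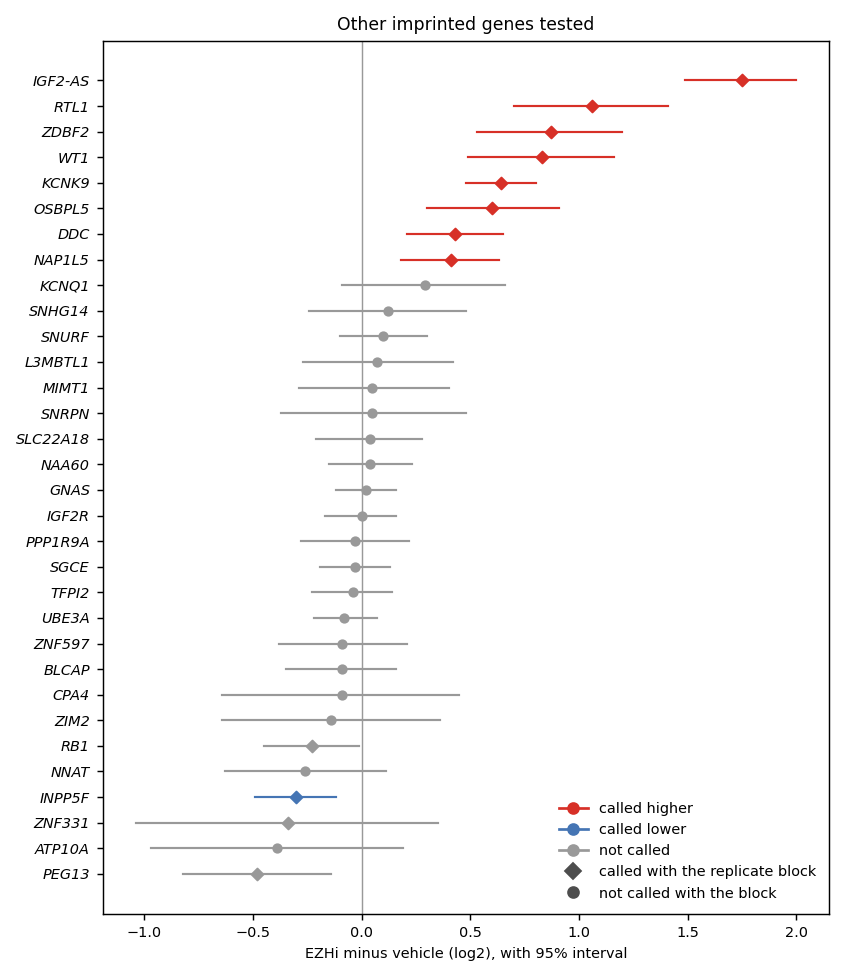
Log2 fold change (EZHi minus vehicle) with its 95% interval from limma, without the block, for the 32 other imprinted genes tested. Red marks the 8 called higher, blue the 1 called lower and grey the rest, and diamonds mark genes called with the replicate block. The intervals of most other genes span zero.

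Genes around the members were then counted, taking those within 500 kb. Of 87 neighbours tested, 9 were called higher and 1 lower, against 8.85% and 4.27% of all genes, and with the replicate block 13 were higher and 7 lower, against 14.9% and 15.1%. HYMAI, which overlaps PLAGL1 and was higher in EZHi in 4 of 4 pairs, was under the filter and is not counted here. Of the 10 tested neighbours of PLAGL1, 0 were called by limma, against 8.85% higher and 4.27% lower among all genes. Their log2 fold changes ran from -0.39 to 0.17, and the number with an unadjusted p under 0.05 was 1. Under the block PEX3, a peroxisome biogenesis gene, was called lower (-0.39, limma adjusted p 0.00203), and without the block it was also called when EZHi replicate 1 was left out (0.0322).

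Around IGF2, 5 of 19 tested neighbours were called higher and 0 lower, against 8.85% and 4.27% of all genes. At an unadjusted p under 0.05, 8 were higher and 2 lower, and the share of all genes at that threshold was not computed. With the replicate block 7 were higher and 2 lower, against 14.9% and 15.1% of all genes. The block added TRPM5 and LSP1 (limma adjusted p 0.015 and 0.0113) to the higher and SYT8 and TNNI2 (0.0164 and 0.0437) to the lower genes. TNNT3, the fast skeletal troponin T gene, went from 0.575, 0.495, 0.586 and 0.539 to 3.77, 4.76, 7.72 and 3.80 in estimated FPKM, a log2 fold change of 3.13 (SE 0.213, limma adjusted p 1.61e-05). The EZHi libraries were all far above the vehicle libraries, and this change exceeded that of PLAGL1. TSPAN32, a tetraspanin gene, went from 0.406, 0.373, 0.342 and 0.561 to 0.978, 1.61, 1.45 and 1.22, a log2 fold change of 1.65 (limma adjusted p 0.000409). IGF2-AS stood between these genes in size, and C11orf21 and CD81 rose by 0.99 and 0.87. TSPAN32 and C11orf21 overlap on opposite strands, so that reads there cannot be assigned without strand. All 5 were far below the level of IGF2. Apart from TNNT3 they had a mean estimated FPKM under 1 over the 8 libraries, a level at which 13.8% of all genes were called higher.

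**Figure D4:**
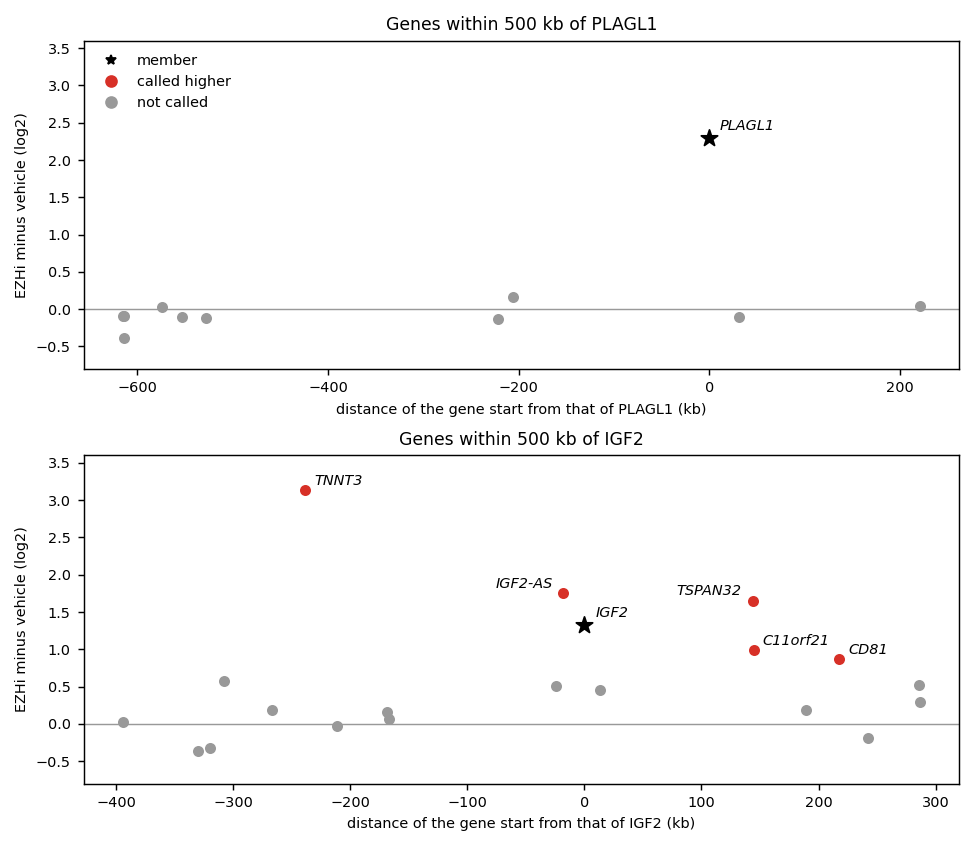
Log2 fold change (EZHi minus vehicle) of the genes tested within 500 kb of PLAGL1 (top) and of IGF2 (bottom), against the distance of their start from that of the member in kb. Stars mark the members, red the genes called higher without the block and grey those not called. No tested neighbour of PLAGL1 comes near it, while 5 genes on both sides of IGF2 rise.

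Some neighbours of KCNQ1OT1 are also neighbours of IGF2. Of 15 tested, 5 were called higher, against 8.85% of all genes, and OSBPL5 was the only one not already counted around IGF2. Around DLK1, 1 of 10 was called higher and around MEG3 1 of 9, RTL1 in both cases, and around GRB10 the single call among 6 was DDC. The replicate block called 14.9% of all genes higher and 15.1% lower. It changed these counts to 3 higher and 1 lower around both DLK1 and MEG3 (SLC25A47 and SLC25A29 higher, WARS1 lower). They became 1 higher and 1 lower around GRB10 (COBL lower) and 6 higher and 1 lower around KCNQ1OT1 (TRPM5 higher, NAP1L4 lower). The counts around MEST stayed at 1 higher and 1 lower. Around MEST, 1 of 12 was called higher and 1 lower. CPA1, a carboxypeptidase gene, had a mean estimated FPKM of 0.0998 in vehicle and 0.123 in EZHi, so that it too passed the filter only through EZHi, and without it 8 of 86 neighbours were called higher. Its log2 fold change was 0.30 (limma adjusted p 0.0179), and it was not called without vehicle replicate 1 (0.0532) or 4 (0.0562), without EZHi replicate 4 (0.0553) or with quantile normalization (0.141). The noncoding LINC00513 changed by -0.41 (limma adjusted p 0.0448), and that call was kept when vehicle replicate 3 or EZHi replicate 2 was left out and lost in the other 6 fits, where the limma adjusted p was 0.0859 to 0.128. None of the 21 neighbours of PEG3 and the 3 of PEG10 was called by limma with or without the block, and the number with an unadjusted p under 0.05 without the block was 1 around PEG3 and 0 around PEG10.

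Genes that act with the members were described last. The relatives PLAG1 and PLAGL2, which recognise similar sequences, had log2 fold changes of 0.22 (95% interval -0.24 to 0.69) and -0.10 (-0.24 to 0.04) and were not called with or without the block. Of 6 reported targets of PLAGL1, 3 were tested and 0 were called by limma, against 8.85% higher and 4.27% lower among all genes. An unadjusted p under 0.05 was seen in 0 of them. With the replicate block 0 were called higher and 1 lower, against 14.9% and 15.1% of all genes. With 3 genes tested, these counts cannot show whether the targets as a group changed. PPARG, a nuclear receptor of lipid metabolism, went from 24.2, 19.5, 41.7 and 26.3 to 17.7, 15, 27.5 and 16.8 in estimated FPKM and was lower in EZHi in 4 of 4 pairs. Its log2 fold change was -0.52 (limma adjusted p 0.21, and 0.000278 with the replicate block). The glucose transporter gene SLC2A4 and the cytokine signalling inhibitor SOCS3 had log2 fold changes of 0.03 and -0.04.

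Among 7 tested factors that maintain imprints, SMCHD1, a structural protein of silent chromatin, was the 1 called lower, against 4.27% of all genes, from 37.0 ± 2.44 to 30.8 ± 1.33 (SD, n = 4) in estimated FPKM. Its log2 fold change was -0.26 (limma adjusted p 0.0301), it was called in 2 of the 8 fits that left out 1 library, those without vehicle replicate 1 and without EZHi replicate 3, with a limma adjusted p of up to 0.0792 in the others, and it was not called with centred libraries (0.16) or quantile normalization (0.152). Under the block the maintenance methyltransferase DNMT1 and its partner UHRF1 were also called lower, by -0.25 and -0.27 (limma adjusted p 0.00857 and 0.0093), which made 3 of 7, against 15.1% of all genes. Without the block DNMT1 was called only when vehicle replicate 3 was left out (0.0411). TRIM28, the corepressor recruited by ZFP57, had a log2 fold change of -0.02.

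Of 7 receptors and RNA-binding partners of IGF2 tested with limma, 0 were called higher and 1 lower, against 8.85% and 4.27% of all genes, and 0 were higher at an unadjusted p under 0.05. The called gene, IGF2BP3, which binds IGF2 mRNA, had a log2 fold change of -0.30 (limma adjusted p 0.0232), and its call was lost without vehicle replicate 1 (0.0597) or 3 (0.0504), without EZHi replicate 2 (0.0611) or 4 (0.0738), with centred libraries (0.108) and with quantile normalization (0.126). The insulin receptor gene INSR was called lower only with the replicate block (-0.17, limma adjusted p 0.0171). IGF2BP1, IGF2BP2 and the receptor IGF1R had log2 fold changes of -0.14, -0.10 and 0.08 and were not called with or without the block.

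Hepatocyte genes gave a further reference for the members that were higher in all pairs. Of the 8 HepG2 markers, 7 had a positive log2 fold change, and the median of the 8 was 0.259. The fibrinogen gene FGB was called higher (log2 fold change 0.92, limma adjusted p 0.00167) and 0 were called lower, against 8.85% and 4.27% of all genes. With the replicate block the apolipoprotein genes APOA1 and APOB were also called higher, by 0.42 and 0.36. The albumin gene ALB was then called lower, by -0.28, and the shares of all genes were 14.9% and 15.1%. FGB, APOA1 and APOB were higher in EZHi in 4 of 4 pairs, ALB in 0, and AFP, HNF4A, TTR and SERPINA1 in 2 or 3. AFP, the fetal serum protein, which like IGF2 and DLK1 belongs to the fetal liver, had an estimated FPKM of 16100 ± 3210 in vehicle and 16300 ± 2300 in EZHi (SD, n = 4), a log2 fold change of 0.03 (95% interval -0.34 to 0.40).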

How the data were processed

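HepG2 cells in vehicle or EZHi (4 libraries each) were grouped and numbered from the sample titles. Per the labels and the methods, the authors aligned to hg38 (HISAT2 2.2.1), counted reads over exons without regard to strand (HTSeq 0.9.1), applied the regularized log of DESeq2 1.40.2 and divided by transcript length. The deposited values are log2 values, from -6.81 to 19.01, with differences of low genes shrunken. Counting without strand can mix antisense or overlapping genes. The annotation release used for counting is not given in the sources used here.

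One repeated row of 25604 was dropped, and coordinates came from GENCODE 44 (25594 of 25603 genes matched). With transcript length multiplied back in, the libraries summed to 24.4 to 27.3 (in units of 1e6 normalized reads), and the mean of 25.6 set the scale of the estimated FPKM. Read depth is unknown, so no counting interval is given.

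A mean estimated FPKM of 0.1 or more was required, and the 20153 genes left were fitted with limma 3.58.1 in R 4.3.3 (trended eBayes, two-sided, Benjamini-Hochberg over all genes, called at 0.05). The fit was tested on simulated data. Although the deposited values are named FPKM, they are log2 values, and limma was run on them without a further log. Same-numbered libraries correlated across genes in their deviations from the group means (r 0.310, 0.558, 0.634 and 0.216), against at most 0.199 for other pairs, so the numbers were taken to pair the libraries, on the data alone. P-values measure the spread between these libraries. Counts at an unadjusted p under 0.05 have no reference, since the share of all genes at that threshold was not computed. Members and lists were chosen with earlier results of these data known. Named were all members, called genes of each list (up to 8 by size) with up to 3 abundant uncalled ones, up to 3 called neighbours per member, and the 5 genes nearest PLAGL1. RB1, ZNF331, PEG13, PEX3, the neighbours called only with the block, C11orf21, CD81, KCNQ1, HYMAI, MESTIT1 and other genes beyond these limits were named after their values were seen. The alternatives were a replicate block, other filters (at least 1 or none), log2(estimated FPKM + 0.5) and log2(estimated FPKM + 0.1), libraries centred on genes of at least 10 FPKM, quantile normalization, median of ratios, and each library left out. The block with each pair left out was added after seeing the data. Counts and figures were made in Python 3.11.15 (pandas 2.3.3, numpy 2.4.6, matplotlib 3.10.9).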

Additional observations from a re-analysis of the deposited data

How the results depend on the processing

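PLAGL1 stayed between 2.02 (log2 of estimated FPKM + 0.5) and 2.41 in log2 fold change over all alternatives. The replicate block gave 3003 genes higher and 3048 lower, 5 members higher, 4 other imprinted genes lower and 7 neighbours lower, and among the members tested it added calls for IGF2, DLK1, GRB10 and KCNQ1OT1 and removed none. With a filter of at least 1 FPKM, 780 genes, 4 other imprinted genes and 2 neighbours were called higher, and part of the fall comes from testing fewer genes. The number of neighbours called lower was 0 with no filter, 0 with log2(estimated FPKM + 0.5), 0 with centred libraries and 4 with quantile normalization. Centring also gave 319 genes lower and 0 other imprinted genes lower, and turned PEG3 to 0.07 and PEG10 to 0.00785, and quantile normalization turned PEG3 to 0.09, with no call in any of these fits. The cause was not tested. The median log2 fold change of all genes was 0.0877 with centring and -0.0596 with quantile normalization.

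Leaving out 1 library without the block gave 1422 to 1711 genes higher and 389 (without EZHi replicate 4) to 860 lower, 0 to 2 members higher, 5 (without vehicle replicate 4) to 8 other imprinted genes higher and 0 to 1 lower, and 6 to 10 neighbours higher and 0 to 1 lower. PEG3 moved between -0.11 and 0.02 in these fits. With the block and 1 pair left out, 2336 to 2546 genes were higher and 1788 to 2497 lower (2222 without pair 1, 1895 without pair 3), the members called higher stayed at 5, 2 to 4 other imprinted genes and 3 to 7 neighbours were lower, and 7 to 8 and 11 to 13 were higher. Dixon's test set apart 0 libraries in the 18 groups of member values, where about 0.9 would be expected. Without depth in the files, the precision of low genes such as MEG3, HYMAI and KCNQ1OT1 is unknown.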
